A study of Mus musculus with 2 samples.

Results

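Platelet-derived growth factor (PDGF) signalling was described through 6 of the 34285 genes listed in each library. The members were picked by gene symbol alone: the ligand genes Pdgfa (ENSMUSG00000025856), Pdgfb (ENSMUSG00000000489), Pdgfc (ENSMUSG00000028019) and Pdgfd (ENSMUSG00000032006), and the receptor genes Pdgfra (ENSMUSG00000029231) and Pdgfrb (ENSMUSG00000024620). Their RNA was counted in single cells of mandibular first molars and the tissue around them, taken from C57BL/6J mice at PN15.5. The Lipo-Clo library came from mice injected intraperitoneally with clodronate liposomes, which kill phagocytic cells such as macrophages, at 40 μg/g, first on PN3.5, then on PN6.5 and PN9.5, and last on PN12.5. The Lipo-PBS library came from mice given vehicle liposomes on the same days. How many mice went into each library is not given in the sources used here. Each condition is 1 library, so no difference between conditions has a replicate check, no test was made, and every interval below is a 95% interval that covers counting error only. The study asked how macrophages contribute to root development. From predicted signalling it described them as a major sender of growth factors to mesenchymal cells. The comparison below answers only which cells carried PDGF ligand and receptor RNA and how those levels differed between the libraries.

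PDGF ligands are secreted dimers that make receptor tyrosine kinases pair and phosphorylate each other at the cell surface. PDGF-A and PDGF-C act through the receptor PDGFRα, PDGF-D acts mainly through PDGFRβ, and PDGF-B binds both. PDGF-A and PDGF-B are cleaved inside the cell by convertases such as furin, whereas PDGF-C and PDGF-D are secreted as latent proteins that proteases outside the cell must open. PDGFRα is a usual mark of mesenchymal cells and fibroblasts in developing organs, PDGFRβ a mark of pericytes and vascular smooth muscle, and PDGF-B made by endothelium is known for drawing pericytes to growing vessels. In the tooth, PDGFRα and its ligands are known from the crosstalk between enamel epithelium and the mesenchyme beneath it.

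After filtering, 8254 Lipo-Clo cells (26852424 unique molecular identifiers, UMIs, each tagging 1 captured RNA molecule) and 8261 Lipo-PBS cells (25831678 UMIs) were used, with medians of 2567 and 2678 UMIs per cell. The libraries shared 30 cell barcodes. Clusters were formed without the 6 genes and named from marker lists that do not hold them; a class called X-like below carries at least 3 markers of X. Mesenchyme-like cells, called dental mesenchyme here, made up 51.8% of Lipo-Clo and 49.3% of Lipo-PBS, and macrophage-like cells 1.54% (1.28 to 1.83) and 2.12% (1.82 to 2.45). Neutrophil-like cells were 7.01% and 2.45%. A cluster led by genes of several lineages (Acta2, Igfbp7, Col4a1) held 77 Lipo-Clo and 665 Lipo-PBS cells and, with a smaller cluster, was left unnamed. The largest mesenchymal cluster also differed: 897 and 440 cells of a cluster led by Thbs4, Col16a1 and Tnn, and 548 and 997 of one led by Clec3b and Mfap5. Mitochondrial genes took 0.370% of UMIs in Lipo-Clo and 1.73% in Lipo-PBS. Levels are given as CPM, the UMIs of a gene scaled to a common total over the summed cells, and, apart from the share of Pdgfra among receptor UMIs, each gene is compared across cells, not with other genes.

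The leading class differed among the ligands, except that endothelium-like cells were highest for both Pdgfb and Pdgfd. Pdgfa was highest in perivascular-like cells (pericytes and vascular smooth muscle, led by Rgs5, Notch3 and Acta2), at 336 CPM (296 to 380.0) in Lipo-Clo and 311 (282 to 341) in Lipo-PBS. Glia-like cells, among whose leading genes is the myelin gene Mbp, followed at 313 (261 to 373) and 195 (164 to 230.5) CPM. Lymphatic endothelium-like cells carried 270.2 (182 to 386) CPM in Lipo-Clo, from 30 cells, and 142 (116 to 172) in Lipo-PBS, from 145 cells. In Lipo-Clo the order of these classes was not resolved: perivascular-like cells were 1.07-fold (0.86 to 1.34) above glia-like cells. In Lipo-PBS they were 1.59-fold (1.31 to 1.94) above them. Dental mesenchyme stood lower, at 87.9 and 75.4 CPM, and neutrophil-like and erythroid-like cells between 13.1 and 14.8 CPM in both libraries.

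Among the perivascular-like cells, pericyte-like cells (156 in Lipo-Clo, 150 in Lipo-PBS) held Pdgfa at 460.4 and 526 CPM and vascular smooth muscle-like cells (60 and 144) at 369 and 309 CPM. Pdgfra, the receptor gene for this ligand, was at 27.9 and 38.3 CPM in all perivascular-like cells and at 9.47 and 7.59 CPM without the subclusters led by another class. Because mesenchymal cells were far more numerous, they nonetheless held 63.5% (Lipo-Clo) and 46.8% (Lipo-PBS) of all Pdgfa UMIs, against 12.6% and 19.7% in perivascular-like cells.

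Pdgfb was the rarest member, with 235 UMIs in all kept Lipo-Clo cells and 293 in Lipo-PBS, and its level was highest in endothelium-like cells in both. Most of its UMIs lay elsewhere: endothelium-like cells held 34.0% and 25.3%, and dendritic cell-like cells 21.3% and 3.75%. The dendritic cell-like class, of 320 and 217 cells, was mixed. When myeloid cells were clustered on their own, the dendritic cell-like subcluster (95 and 69 cells) held 5 and 0 Pdgfb UMIs. Unnamed cells held 9 and 62 Pdgfb UMIs. Endothelium-like cells, marked by Flt1, Emcn and Cdh5, carried 165 CPM (131 to 205; 80 UMIs) in Lipo-Clo and 143 CPM (112 to 179; 74 UMIs) in Lipo-PBS. That was 3.74-fold (2.07 to 7.32) above the next class in Lipo-Clo and 3.94-fold (2.49 to 6.42) above the next in Lipo-PBS. With every deposited cell kept, a wider cluster of 463 and 813 cells took the endothelial name and its Pdgfb level was 114 and 58.2 CPM. Glia-like cells had 42.6 and 36.3 CPM. Dental mesenchyme had 7 UMIs among 4279 cells (0.484 CPM) in Lipo-Clo and 19 among 4071 cells (1.40 CPM) in Lipo-PBS, or 2.98% and 6.48% of the gene's UMIs. B cell-like and neutrophil-like cells of Lipo-PBS had 0 UMIs, which allows up to 5.89 and 5.16 CPM (3 UMIs of the class total). The 30 lymphatic endothelium-like cells of Lipo-Clo also had 0 UMIs, which by the same limit allows up to 27.0 CPM, and the 145 of Lipo-PBS had 26.4 CPM.

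Macrophages, at which the depletion was aimed, held few of the Pdgfb UMIs. Macrophage-like cells had 13 UMIs (44.1 CPM, 23.5 to 75.4) in Lipo-Clo and 8 UMIs (16.6 CPM, 7.18 to 32.8) in Lipo-PBS, or 5.53% and 2.73% of the gene's UMIs, with a log2 ratio of 1.41 (0.03 to 2.88). The mixed dendritic cell-like class had 31.4 and 14.7 CPM (1.10, 0.14 to 2.19). When myeloid cells were clustered on their own, the macrophage-like subclusters (114 and 142 cells) had 39.4 and 26.5 CPM from 10 and 9 UMIs, and the interval of their log2 ratio, -0.88 to 2.05, held 0. An osteoclast-like subcluster, led by Mmp9, Acp5 and Ctsk, carried more: 40 UMIs in 47 Lipo-Clo cells (123 CPM, 87.8 to 167) and 3 UMIs in 10 Lipo-PBS cells (45.8 CPM), a log2 ratio of 1.42 (-0.23 to 3.76). In Lipo-Clo its interval overlapped that of endothelium-like cells (165 CPM, 131 to 205). The macrophage-like and dendritic cell-like classes, from which the myeloid cells came, held 13 and 50 Pdgfb UMIs in Lipo-Clo, and 40 of these were in the osteoclast-like subcluster; in Lipo-PBS they held 8 and 11. Over all myeloid cells outside subclusters led by another class Pdgfb was 39.0 and 20.05 CPM (0.96, 0.10 to 1.91). Of these 61 and 14 UMIs, 40 and 3 were in the osteoclast-like subcluster, of 47 and 10 cells. The ratio without that subcluster is not given here. Pdgfc in the macrophage-like class was 20.4 CPM (6 UMIs) and 39.5 CPM (19 UMIs). Pdgfa and Pdgfd in it did not exceed 47.5 and 17.0 CPM.

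Pdgfc was highest in ameloblast-like cells, the enamel-forming epithelium marked here by Amelx, Ambn and Klk4. They carried 269.6 CPM (245 to 296; 450 UMIs) in Lipo-Clo and 252 CPM (219.8 to 287; 224 UMIs) in Lipo-PBS. Dental mesenchyme came next at 48.8 and 48.2 CPM, so that ameloblast-like cells were 5.52-fold (4.89 to 6.22) and 5.22-fold (4.47 to 6.09) above it. The other epithelium-like cells, led by Krt15 and Lgals7 or by Cxcl14, had 35.1 and 40.1 CPM and were not resolved from the mesenchyme. Within the ameloblast-like cells the gene was uneven. A subcluster led by Gm17660, Slc39a8 and Nav3 (129 and 123 cells), with Pdgfc among its 10 leading genes, had 569 (481 to 669) and 489 (402 to 589) CPM, and one led by Plb1, Calb1 and Klk4, an enamel protease of the later stage of enamel formation, had 261 and 177 CPM from 309 and 78 cells. The median depth was 1519 UMIs per cell in the Gm17660-led and 2384 in the Plb1-led subcluster. Mesenchyme held 55.2% and 57.0% of Pdgfc UMIs and ameloblast-like cells 35.2% and 19.6%. The lower share in Lipo-PBS went with fewer ameloblast-like cells there, 336 against 608.

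Pdgfd was split between endothelium and mesenchyme. Endothelium-like cells had 128 CPM (97.9 to 164) in Lipo-Clo and 203 (166 to 245) in Lipo-PBS, and dental mesenchyme 112 and 124. The first 2 places were 1.14-fold apart (0.87 to 1.47) in Lipo-Clo and 1.64-fold (1.33 to 1.99) in Lipo-PBS. Ameloblast-like cells had 67.1 and 68.5 CPM. By number, mesenchymal cells held 82.3% and 72.7% of the gene's UMIs and endothelium-like cells 3.14% and 4.54%. In the endothelial subcluster led by Plcb1, Ptprg and Apbb2 (127 and 131 cells) Pdgfd reached 274 and 338 CPM. Its median depth was 1001 UMIs per cell, beside 1088.5 and 1146.5 in all endothelium-like cells.

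Pdgfra was a mesenchymal gene: dental mesenchyme carried 188 CPM (181 to 196) in Lipo-Clo and 246 (237 to 254) in Lipo-PBS, 3.94-fold (2.25 to 7.63) and 2.79-fold (2.19 to 3.62) above the next class. It held 89.1% and 80.3% of all Pdgfra UMIs, while unnamed cells held 49 of 3059 in Lipo-Clo and 366 of 4147 in Lipo-PBS. Pdgfrb was a perivascular gene: perivascular-like cells carried 699.7 CPM (641 to 762) and 476 (440.3 to 514), which was 7.11-fold (6.43 to 7.87) and 4.50-fold (4.10 to 4.94) above dental mesenchyme at 98.4 and 106 CPM. Pericyte-like cells (median depth 1499 UMIs per cell) had 765 and 692 CPM, and vascular smooth muscle-like cells 404 and 259. An unnamed perivascular subcluster led by Gpc6, Prkg1 and Utrn, with a lower median depth of 1134 UMIs per cell, had 1296 and 877 CPM. Even so, mesenchymal cells held 64.5% and 54.3% of Pdgfrb UMIs and perivascular-like cells 23.9% and 24.97%. With a filter of 500 genes per cell, only a smooth muscle cluster of 46 and 117 cells kept the perivascular name, and its Pdgfrb level was 296 and 214 CPM.

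**Figure D1:**
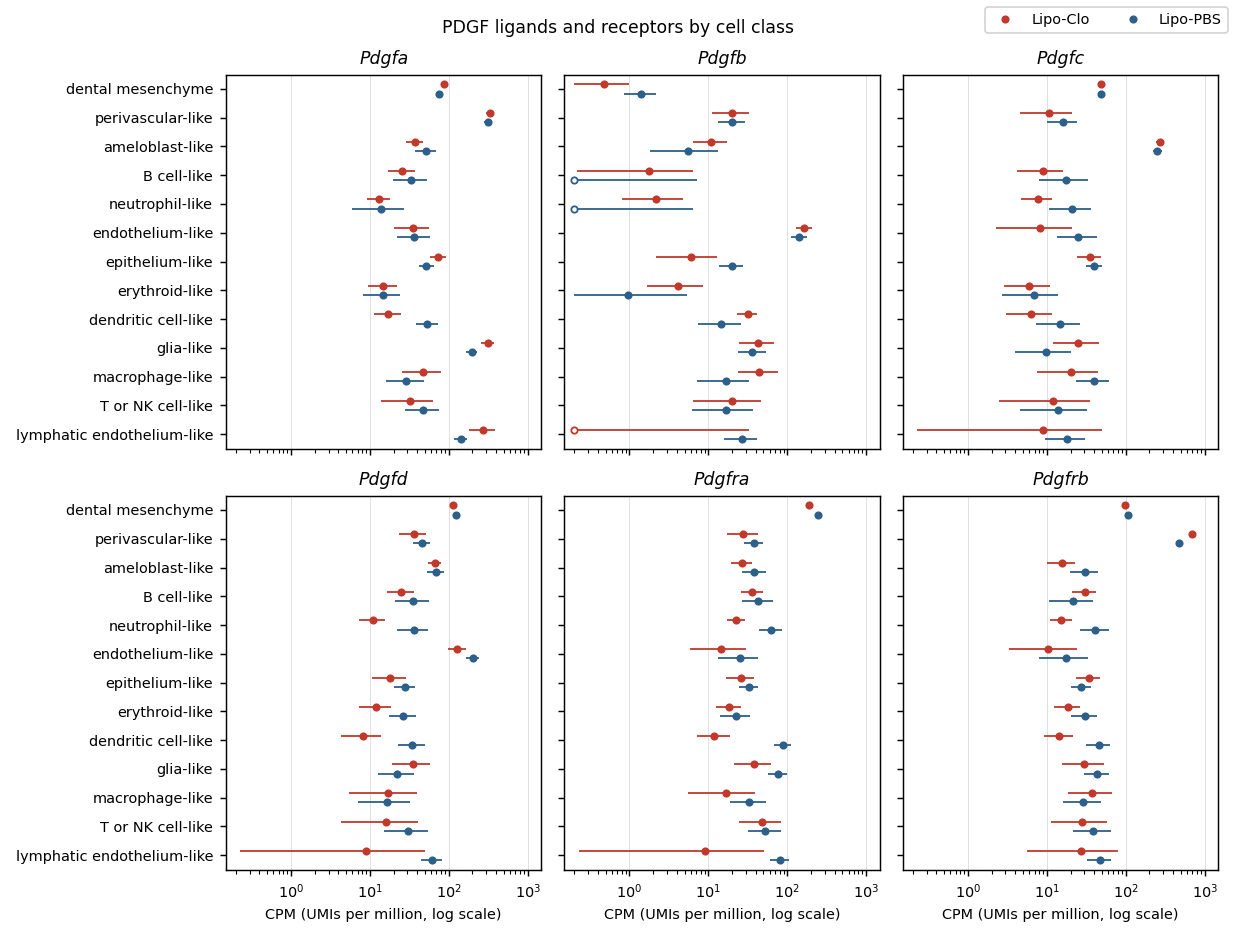
Level of each PDGF gene in 13 named cell classes; the x axis is CPM on a log scale, points are the summed cells of a library (red Lipo-Clo, blue Lipo-PBS), lines are 95% Poisson intervals, and open points at the left edge stand for 0 UMIs. The highest points are perivascular-like cells for Pdgfa and Pdgfrb, endothelium-like cells for Pdgfb and Pdgfd, ameloblast-like cells for Pdgfc and dental mesenchyme for Pdgfra, in both libraries.

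Droplets also take up free RNA, so the level in blood cells sets what counts as background. Thinned to 1000 UMIs per cell, 2.4% (Lipo-Clo) and 5.6% (Lipo-PBS) of neutrophil-like cells had a Pdgfra UMI, against 16.7% and 21.8% of mesenchymal cells; unthinned, the shares were 7.94% and 10.9% against 38.2% and 45.6%, at median depths of 2921 and 2060 UMIs for neutrophil-like and 2840 and 2970 for mesenchymal cells. Set against Col1a1, a collagen gene of mesenchyme and a guide to its free RNA, Pdgfra gave 4.92 and 7.07 UMIs per 1000 Col1a1 UMIs in dental mesenchyme, 6.05 and 7.57 in neutrophil-like cells and 4.12 and 3.51 in erythroid-like cells; over the other classes it ran from 1.48 to 12.6, the latter in Lipo-PBS glia-like cells. Col1a1 itself was at 3733 and 8184 CPM in neutrophil-like cells. By the same measure, Pdgfa gave 62.0 and 45.6 in perivascular-like cells against 2.30 and 2.17 in mesenchyme, Pdgfb 63.2 and 44.1 in endothelium-like cells against 0.0126 and 0.0403, and Pdgfc 56.7 and 30.2 in ameloblast-like cells against 1.28 and 1.39. Because Col1a1 is highest in mesenchyme, this measure is raised in other classes beforehand, and the blood cells are the nearer reference. In neutrophil-like cells Pdgfa gave 3.52 and 1.68, Pdgfb 0.586 and 0, and Pdgfc 2.05 and 2.52. Erythroid-like cells gave 3.32 and 2.29 for Pdgfa, 0.931 and 0.152 for Pdgfb, and 1.33 and 1.07 for Pdgfc. The leading classes of these ligands thus held many times the UMIs per Col1a1 UMI that these blood cells did.

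Some classes held subclusters led by genes of another class. These carried more Pdgfra than the rest, except in the endothelial cells of Lipo-Clo (8.61 against 14.6 CPM). They were picked by their leading genes, which also took in dividing perivascular-like, endothelial and epithelial cells, led by H2ac24 and H1f5 among others. An endothelial subcluster led by S100a9 and Krt14 (3 and 43 cells) was not among them. In myeloid cells the Pdgfra level was 43.9 and 135 CPM in such subclusters and 6.39 and 14.3 CPM without them. In Lipo-PBS such subclusters held 72 of the Pdgfra UMIs of myeloid cells, beside 10 in the rest. Without such subclusters Pdgfrb in perivascular-like cells was at 788 and 577 CPM and Pdgfc in ameloblast-like cells at 311 and 281, above the levels given before, and Pdgfb in endothelium-like cells was at 179 and 140.1.

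**Figure D2:**
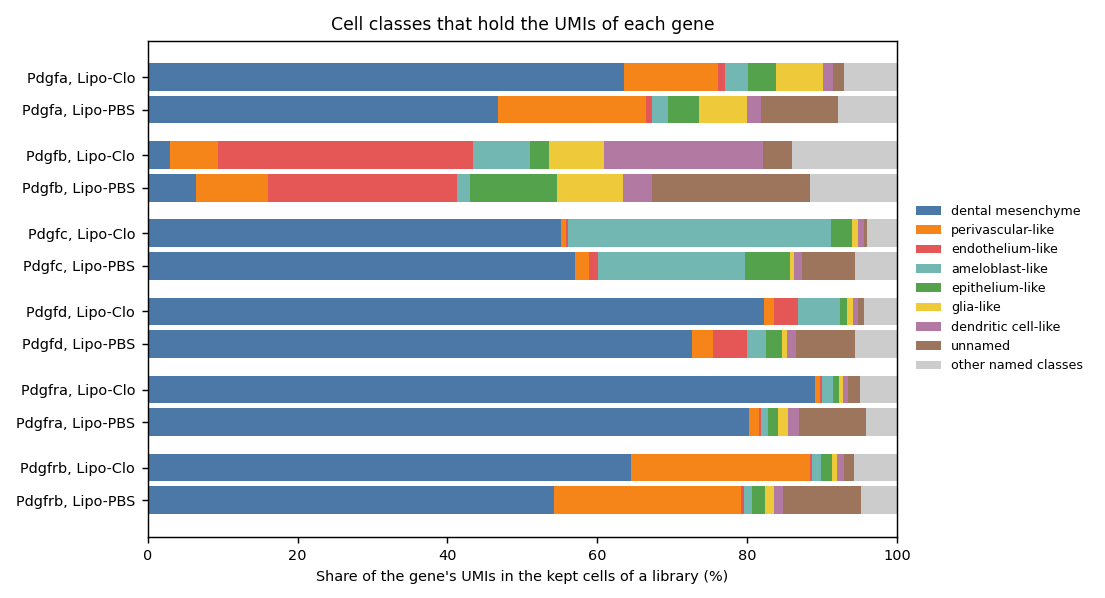
Share of each gene's UMIs held by each cell class, in percent of the gene's UMIs among the kept cells of a library, 1 bar per gene and library. Dental mesenchyme (blue) holds 46.8% or more of the UMIs of every gene except Pdgfb, of which it holds 2.98% in Lipo-Clo and 6.48% in Lipo-PBS; the unnamed cells are wider in every Lipo-PBS bar.

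Across the 13 named classes of both libraries (26 points, 12242 genes compared), the genes whose pattern was most like that of each member were named by Pearson correlation of log2(CPM + 10). These are descriptions over classes that share libraries, and carry no test. Pdgfrb went with Myl9 (0.97), C1s1 (0.96) and Acta2 (0.95); Myl9 and Acta2 are contractile genes of smooth muscle. Pdgfra went with Arsi (0.93), C1qtnf3 (0.93) and the matrix proteoglycan gene Dcn (0.91), and Pdgfc with Ide (0.93), Foxq1 (0.92) and Fmn1 (0.91). Pdgfa went with Plce1 (0.93), Ift43 (0.91) and A830082K12Rik (0.90), Pdgfd with Kirrel3 (0.90), Sncaip (0.90) and Plpp3 (0.87), and Pdgfb with Gbp3 (0.85), Pim3 (0.82) and Tnfaip1 (0.82). Among the members themselves the highest correlation was that of Pdgfa and Pdgfrb (0.64), which share the perivascular-like class as their highest.

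Within the dental mesenchyme the genes were spread over 12 subclusters, of which 9 were named as a dental state, a fibroblast state or osteoblast-type cells from markers. Pdgfa, Pdgfc and Pdgfd each had a leading state of its own. Pdgfa was highest in osteoblast- or cementoblast-like cells led by Ibsp (the bone sialoprotein gene), at 241 CPM (216 to 268) in Lipo-Clo and 183 (162 to 205) in Lipo-PBS. Odontoblast-like cells led by Dspp, which make dentine, followed at 136 and 128 CPM. Dental pulp-like cells led by Ctnnd2 had 2.87 and 11.5 CPM, from 2 and 5 UMIs, and were 83.9-fold (23.0 to 696) and 15.9-fold (6.74 to 49.4) below the osteoblast-type cells. Pulp-like cells were thus the state with the least Pdgfa in both libraries, although their neighbours in the tooth, the odontoblast-like cells, were among the highest.

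Pdgfc was highest in odontoblast-like cells, at 274 CPM (237 to 314) and 304 (258 to 355), which is at the level of the ameloblast-like cells that face them across the enamel and dentine. Osteoblast-type cells had 103 and 108 CPM, dental papilla-like cells led by Kcnip4 67.5 and 90.0 CPM, and the fibroblast-like cells led by Pi16 11.6 and 5.44 CPM. Thinned to 1000 UMIs, 22.5% and 26.1% of odontoblast-like cells had a Pdgfc UMI, beside 22.7% and 24.9% of ameloblast-like cells.

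Pdgfd was highest in the pulp-like cells, at 460 CPM (411 to 513) in Lipo-Clo and 486 (423 to 557) in Lipo-PBS. Papilla-like cells, which give rise to pulp, had 205 and 266 CPM. The lowest levels were 32.5 CPM in fibroblast-like cells led by Eln (Lipo-Clo) and 22.3 CPM in dental follicle-like cells led by Dio2 (Lipo-PBS), 14.1-fold (9.81 to 21.0) and 21.9-fold (15.0 to 32.8) below pulp-like cells. After thinning, which left out 138 and 49 pulp-like cells of lower depth, 34.5% and 37.1% of the others had a Pdgfd UMI. With these 12 subclusters, osteoblast-type cells thus led for Pdgfa, odontoblast-like cells for Pdgfc and pulp-like cells for Pdgfd in both libraries. At a finer resolution a small osteoblast- or cementoblast-like subcluster led by Pde7b (104 and 121 cells) had the highest Pdgfd of Lipo-Clo, 557 CPM (448 to 684), while pulp-like cells led in Lipo-PBS.

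The receptors were present in every state but in different proportions. Pdgfra was lowest in the periodontal ligament-like cells led by Pappa2, at 80.1 and 108 CPM, and highest in fibroblast-like cells led by Eln (284 CPM) in Lipo-Clo and follicle-like cells (481 CPM) in Lipo-PBS, a range of 3.55-fold (2.95 to 4.29) and 4.45-fold (3.76 to 5.28). In Lipo-Clo the 4 highest states, from 270.5 to 284 CPM, were not resolved from each other: the Eln-led, follicle-like, odontoblast-like and papilla-like cells. Nor were papilla-like cells resolved from the next state, fibroblast-like cells led by Pi16 (232 CPM, 189 to 282). The first step between neighbouring states clear of counting error came below pulp-like cells (204 CPM). Pdgfrb was highest in follicle-like cells, at 190.2 and 237 CPM, where pulp-like cells (189.6 and 138 CPM) and periodontal ligament-like cells led by Edil3 (176 and 159 CPM) came next; in Lipo-Clo these 3 states were not resolved from each other. Pdgfrb was lowest in odontoblast-like cells, at 22.9 and 34.8 CPM, 8.29-fold (5.12 to 14.4) and 6.81-fold (4.24 to 11.6) below follicle-like cells.

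The share of Pdgfra among the UMIs of both receptors differed between states, which compares states and not the levels of the genes. Of the Pdgfra and Pdgfrb UMIs of thinned cells together, Pdgfra made up 89.7% and 86.7% in odontoblast-like cells and 79.6% and 83.5% in papilla-like cells, but 55.6% in Lipo-Clo pulp-like cells, and in those of Lipo-PBS both receptors had 23 UMIs. The odontoblast-like shares rest on few UMIs, 26 of Pdgfra against 3 of Pdgfrb in Lipo-Clo and 26 against 4 in Lipo-PBS. No interval was given to these shares. Periodontal ligament-like cells led by Edil3 had 38 UMIs of each in Lipo-Clo and 69.0% Pdgfra in Lipo-PBS, and follicle-like cells 57.2% and 67.8%. Pulp-like cells, the highest for the PDGFRβ ligand gene Pdgfd, were thus also among the mesenchymal states richest in Pdgfrb. Both receptors were rarely seen in the same thinned cell: 11.2% (8.9 to 13.9) and 12.8% (10.6 to 15.3) of mesenchymal cells with a Pdgfra UMI had a Pdgfrb UMI, beside 10.1% (9.1 to 11.2) and 9.0% (8.0 to 10.1) of those without. Cells with a Pdgfc UMI had a Pdgfd UMI in 18.0% (12.46 to 24.6) and 15.9% (10.6 to 22.6), beside 10.3% and 10.1% of the others. At this depth an unseen UMI does not show that a cell lacked the RNA.

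**Figure D3:**
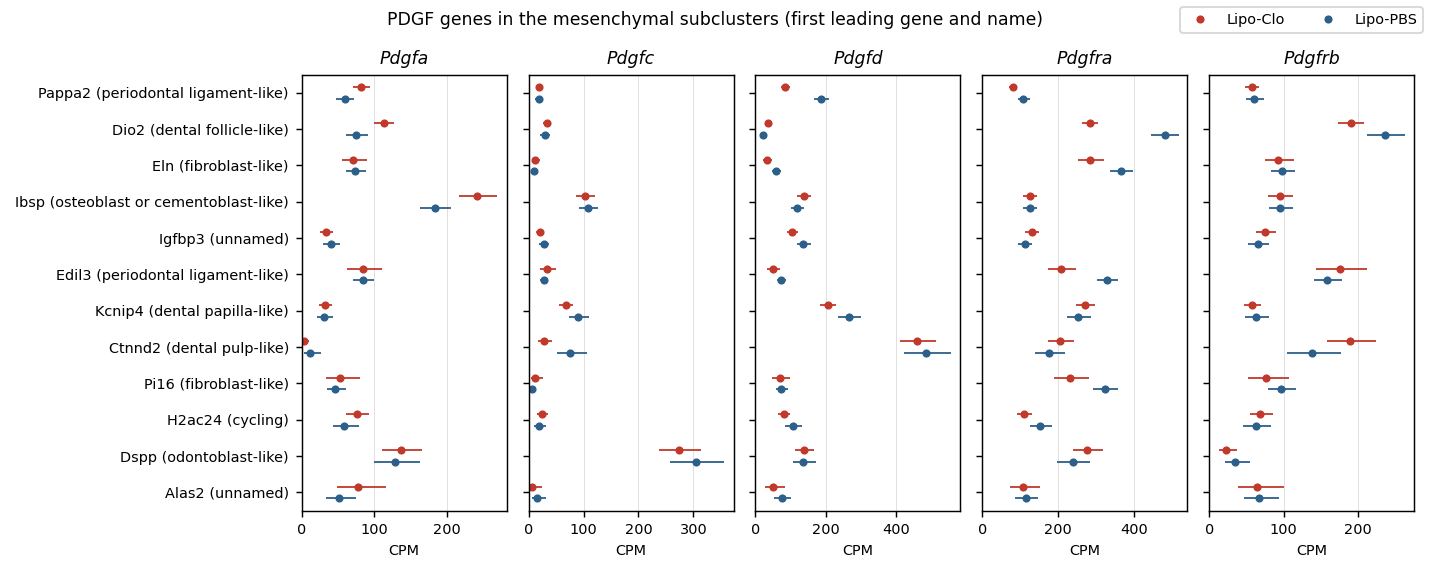
CPM of 5 members in the 12 mesenchymal subclusters, each labelled with its first leading gene and name; points are summed cells of a library (red Lipo-Clo, blue Lipo-PBS) and lines 95% Poisson intervals, on a linear axis that starts at 0. Pdgfa peaks in the Ibsp row, Pdgfc in the Dspp row and Pdgfd in the Ctnnd2 row in both libraries, and the Lipo-PBS point of the Dio2 row lies furthest right for Pdgfra, at 481 CPM against 283 in Lipo-Clo.

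Between the libraries, the PDGF genes of the dental mesenchyme differed little in size. None of the 5 members in use there (a UMI in at least 10% of the cells of either library) was 1.5-fold or more higher or lower in Lipo-Clo, where 0.948% of the 4747 genes in use were that much higher and 5.31% that much lower. Pdgfra was 188 CPM in Lipo-Clo against 246, a log2 ratio of -0.38 (-0.46 to -0.31), and 14.03% of genes in use had a lower ratio. Pdgfa was 87.9 and 75.4 CPM, a log2 ratio of 0.22 (0.10 to 0.34), above 72.8% of genes in use. Pdgfd was 112 and 124 CPM, a log2 ratio of -0.14 (-0.24 to -0.04). Pdgfc, at 48.8 and 48.2 CPM (0.02, -0.14 to 0.18), and Pdgfrb, at 98.4 and 106 CPM (-0.10, -0.21 to 0.00), had intervals that held 0. Pdgfb, not in use in mesenchyme, had 7 and 19 UMIs and a log2 ratio of -1.53 (-3.03 to -0.22).

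The mesenchyme of the libraries differed in other measures beside these ratios. The 6 erythroid markers summed to 22014 CPM in Lipo-Clo mesenchyme and 51155 in Lipo-PBS, the 9 neutrophil markers to 629 and 135, the 8 pericyte markers to 170.2 and 251, and the 8 endothelium markers to 25.4 and 40.8; 1 neutrophil marker was at 0 in Lipo-PBS and no other gene of these lists was at 0. Haemoglobin genes took 2.20% and 5.11% of UMIs, and Col1a1 was at 38298 and 34748 CPM. Their part in the ratios was not tested. The mixture of states differed as well, and when the subclusters were given equal weights in Lipo-Clo and Lipo-PBS the log2 ratio of Pdgfd was -0.35 and that of Pdgfc -0.15. That of Pdgfd turned to 0.03 when cells were thinned to 1000 UMIs and to 0.22 as a mean over cells scaled to the same total, so its direction was not settled. The ratios of Pdgfra, from -0.45 to -0.22, and Pdgfa, from 0.18 to 0.28, kept their sign in all 17 alternatives.

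Within states, the interval of the Pdgfra ratio was clear of 0 in some subclusters and held 0 in others. Of 12 subclusters with at least 50 Pdgfra UMIs, 6 had an interval wholly below 0 and none wholly above. These 6 were follicle-like cells (283 and 481 CPM, log2 ratio -0.77, -0.92 to -0.61), periodontal ligament-like cells led by Edil3 (207 and 329 CPM, -0.67, -0.96 to -0.39) and by Pappa2 (80.1 and 108 CPM, -0.43, -0.74 to -0.13), fibroblast-like cells led by Pi16 (232 and 323 CPM, -0.48, -0.81 to -0.15) and by Eln (284 and 366 CPM, -0.36, -0.58 to -0.15), and cycling cells (-0.45, -0.83 to -0.07). Among the others, odontoblast-like cells had 277 and 238 CPM (0.22, -0.11 to 0.55), papilla-like cells 270.5 and 253 (0.10, -0.12 to 0.32), pulp-like cells 204 and 174 (0.23, -0.19 to 0.65) and osteoblast-type cells 124.4 and 124.5 (0.00, -0.31 to 0.30). Whether the subclusters differ from each other was not tested. At a finer resolution the Eln-led cells had -0.17 (-0.44 to 0.09), and cells led by Thbs4 and Ibsp -0.53 (-1.03 to -0.03). Of the 6 subclusters below 0, only the follicle-like and Edil3-led cells were past 1.5-fold, where 15.7% and 13.6% of genes in use were 1.5-fold or more lower. Over the 12 subclusters, from 4.37% to 18.5% of the genes in use were 1.5-fold or more lower in Lipo-Clo. These shares count genes by size, and the share of all genes with an interval clear of 0 is not given here.

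The follicle-like ratio of Pdgfra is past 1.5-fold, but 15.7% of the 5050 genes in use in that subcluster were at least that much lower in Lipo-Clo. The cells of the libraries were also not alike there. At a finer resolution the follicle-like cells fell mainly into cells led by Moxd1, Ephb1 and Fbln7 (509 in Lipo-Clo, 150 in Lipo-PBS) and cells led by Dio2, Il1rl1 and Chchd10 (103 and 224). Pdgfra was 257 and 300.5 CPM in the first (log2 ratio -0.22, -0.48 to 0.04) and 475 and 680.1 CPM in the second (-0.52, -0.79 to -0.25), and the second, with the higher Pdgfra, was the larger group in Lipo-PBS only. Pdgfrb in the second was 210.1 and 302 CPM (-0.53, -0.94 to -0.13), and in the first 188 and 193 CPM (-0.04, -0.35 to 0.29). Of 18 finer subclusters with 50 Pdgfra UMIs, 9 had an interval below 0 and 1 above, and the share of all genes with such intervals is not given here.

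Pdgfd also differed in periodontal ligament-like cells led by Pappa2, Npnt and Tnn (664 and 405 cells). They carried 84.7 CPM (205 UMIs) in Lipo-Clo against 187 CPM (298 UMIs), a log2 ratio of -1.15 (-1.41 to -0.88), in a subcluster where 9.07% of the 4941 genes in use were 1.5-fold or more lower. At the finer resolution the cells led by Pappa2, Tnn and Entpd3 (428 and 277) had 84.0 and 214 CPM (-1.35, -1.65 to -1.05). The share of Pappa2-led cells with a Pdgfd UMI, thinned to 1000 UMIs, was 6.8% and 15.1%. Pdgfd was also lower in Eln-led fibroblast-like cells (32.5 and 59.8 CPM, -0.88, -1.51 to -0.28), in papilla-like cells (205 and 266 CPM, -0.37, -0.61 to -0.14) and in unnamed cells led by Igfbp3 (104 and 136 CPM, -0.39, -0.70 to -0.09). In these subclusters, in that order, 12.4%, 6.31% and 10.8% of genes in use were 1.5-fold or more lower. At the finer resolution the Eln-led cells had 45.2 and 68.5 CPM, and the interval of their log2 ratio, -1.27 to 0.04, held 0. In follicle-like cells Pdgfd was 35.8 and 22.3 CPM (0.68, 0.08 to 1.32), but in their finer groups the intervals held 0, at 0.28 (-0.46 to 1.08) in the Moxd1-led and -0.54 (-3.88 to 1.94) in the Dio2-led cells. Pulp-like cells, where its level was highest, had 460 and 486 CPM (-0.08, -0.34 to 0.18). At the finer resolution a subcluster led by Pde7b, Myo16 and Unc5d (104 and 121 cells) stood the other way, with 557 and 267 CPM (1.06, 0.61 to 1.52).

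Pdgfa was higher in Lipo-Clo in 3 subclusters beyond counting error and lower in none. These were the osteoblast-type cells (241 and 183 CPM, log2 ratio 0.40, 0.17 to 0.63), the follicle-like cells (113 and 75.1 CPM, 0.59, 0.26 to 0.92) and the Pappa2-led periodontal ligament-like cells (81.4 and 59.1 CPM, 0.46, 0.10 to 0.83). In these subclusters, in that order, 2.76%, 7.07% and 4.49% of genes in use were 1.5-fold or more higher. Of the 3 Pdgfa ratios only the follicle-like one reached 1.5-fold. The share of all genes with an interval clear of 0 is not given here. In the finer follicle-like groups Pdgfa was 113 and 124 CPM in the Moxd1-led cells (-0.13, -0.53 to 0.28) and 79.2 and 44.3 CPM in the Dio2-led cells (0.84, 0.02 to 1.65). Pdgfc was lower in pulp-like cells, with 19 UMIs at 27.3 CPM and 33 UMIs at 75.7 CPM (-1.47, -2.37 to -0.62), and in papilla-like cells (67.5 and 90.0 CPM, -0.42, -0.82 to -0.01). In those 2 subclusters 9.99% and 6.31% of genes in use were 1.5-fold or more lower. At the finer resolution the Ctnnd2-led cells had 27.0 and 71.1 CPM (-1.40, -2.32 to -0.51). The cells led by Lrrc4c and Kcnip4 had 77.2 and 100 CPM (-0.37, -0.82 to 0.07), an interval that held 0. In the odontoblast-like cells, the highest state of Pdgfc, the level was 274 and 304 CPM (-0.15, -0.46 to 0.16). Pdgfrb was higher in pulp-like cells (189.6 and 138 CPM, 0.46, 0.01 to 0.93) and lower in follicle-like cells (190.2 and 237 CPM, -0.32, -0.52 to -0.11), and the intervals of the other 9 subclusters with 50 UMIs held 0. Neither of these Pdgfrb ratios reached 1.5-fold. Of genes in use, 6.06% were 1.5-fold or more higher in the pulp-like and 15.7% that much lower in the follicle-like subcluster.

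**Figure D4:**
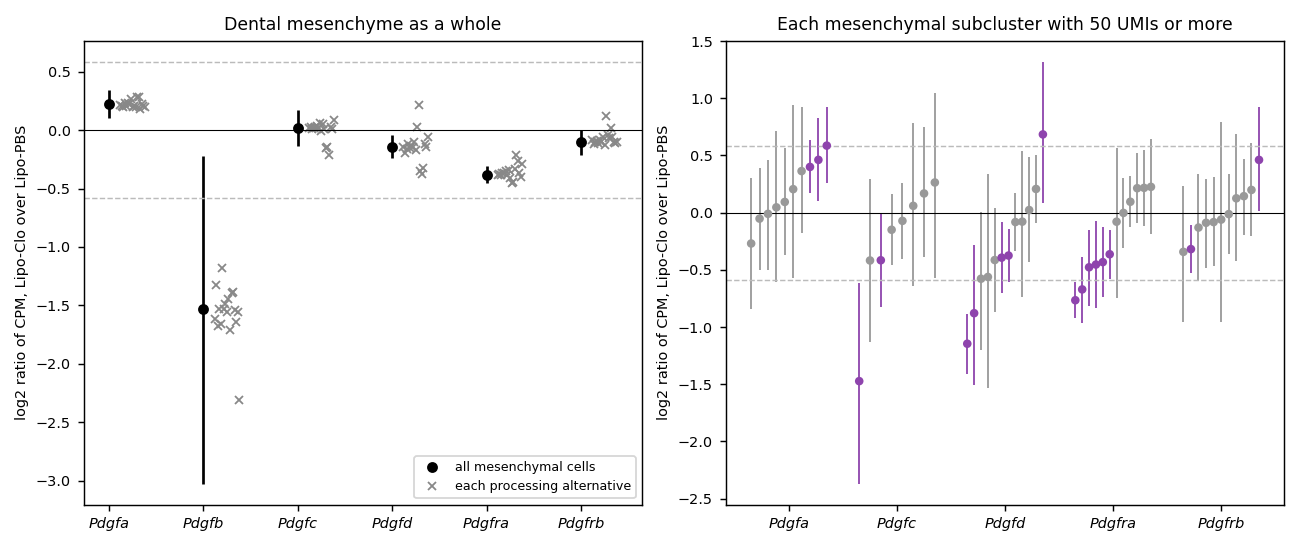
log2 ratio of CPM, Lipo-Clo over Lipo-PBS, in dental mesenchyme. Left, black points with 95% counting intervals are all mesenchymal cells and grey crosses the same ratio under each processing alternative; right, 1 point with its interval per subcluster with 50 UMIs or more, purple where the interval does not hold 0; dashed lines mark 1.5-fold. Pdgfra has 6 purple points below 0 and none above, and Pdgfa 3 above and none below.

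Outside the mesenchyme, the ratios of Pdgfb and Pdgfc in their leading classes had intervals that held 0. Pdgfb in endothelium-like cells was 165 and 143 CPM (log2 ratio 0.21, -0.27 to 0.68), and Pdgfc in ameloblast-like cells 269.6 and 252 CPM (0.10, -0.14 to 0.34). The ameloblast-like subclusters led by Gm17660 (129 and 123 cells) and by Plb1 (309 and 78 cells) differed in Pdgfc level, as given above. The part of this mixture in the Pdgfc ratio was not tested. In epithelium-like cells Pdgfb had 6 UMIs against 34, at 6.01 and 19.8 CPM (-1.72, -3.26 to -0.45). In that class 10.1% of the 5401 genes in use were 1.5-fold or more lower. Without the subclusters led by another class the Pdgfb log2 ratio was -1.40 (-2.98 to -0.06), and under 12 alternatives it ranged from -1.84 to -0.38. Pdgfd in endothelium-like cells was 128 CPM (62 UMIs) against 203 CPM (105 UMIs), a log2 ratio of -0.67 (-1.14 to -0.20), in a class where 8.07% of genes in use were 1.5-fold or more lower. It was 139.9 and 215 CPM without the subclusters led by another class (-0.62, -1.12 to -0.13), and 9.3% and 15.8% of thinned cells had a UMI. Under the 10 alternatives that kept an endothelial name it ranged from -0.84 to -0.03.

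Pdgfa in glia-like cells was 313 CPM (125 UMIs in 187 cells) and 195 CPM (140 UMIs in 298 cells), a log2 ratio of 0.68 (0.32 to 1.04), where 9.24% of the 3995 genes in use were 1.5-fold or more higher. Erythroid markers summed to 34980 CPM in the Lipo-Clo and 69825 CPM in the Lipo-PBS glia-like cells, and mesenchyme markers to 21083 and 16203; their part was not tested. Pdgfa in lymphatic endothelium-like cells was 270.2 and 142 CPM (0.93, 0.29 to 1.53), from 30 and 102 UMIs, in a class where 23.2% of genes in use were 1.5-fold or more higher. Without the subclusters led by another class it was 247 and 137 CPM (0.85, 0.02 to 1.61), from 18 and 72 UMIs. Erythroid markers summed in the whole class to 1855 against 58050 CPM and mesenchyme markers to 11610 against 20149. Their part was not tested.

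Pdgfrb in perivascular-like cells was 699.7 CPM (527 UMIs in 400 cells) and 476 CPM (659 UMIs in 586 cells), a log2 ratio of 0.56 (0.39 to 0.72) that stayed between 0.45 and 0.62 in 11 alternatives. This was 1.47-fold, in a class where 5.35% of the 3511 genes in use were 1.5-fold or more higher. Without the subclusters led by another class the log2 ratio was 0.45 (0.26 to 0.64), and in those subclusters 0.84 (0.46 to 1.22). The 8 pericyte markers, which do not include Pdgfrb, summed to 13063 and 9234 CPM in all perivascular-like cells, and erythroid markers to 46661 and 96115 CPM. Their part was not tested. By type, pericyte-like cells had 765 and 692 CPM (0.14, -0.14 to 0.43) and vascular smooth muscle-like cells 404 and 259 CPM (0.64, 0.09 to 1.17), of which Lipo-PBS held 144 cells and Lipo-Clo 60. Pdgfa in the same perivascular-like cells was 336 and 311 CPM (0.11, -0.12 to 0.34). The share of thinned perivascular-like cells with a Pdgfrb UMI was 48.3% and 35.4%, beside 1.3% and 3.7% of neutrophil-like cells.

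The rest of the PDGF pathway was read from 74 genes in 5 role lists, of which 48 were in use in dental mesenchyme. None was 1.5-fold or more higher in Lipo-Clo and 3 were that much lower, 1 each among receptor partners, adaptors and kinases, and brakes, where 0.948% and 5.31% of all genes in use were. The median log2 ratio of the 48 genes was -0.16, with 36 below 0 and 12 above, beside -0.01 over all 4747 genes in use. 

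Of the genes that process or bind the ligands, 7 of 11 were in use and none was past 1.5-fold, with a median of -0.05. Furin, the convertase that cleaves PDGF-A and PDGF-B, was 161 and 129 CPM (0.32, 0.23 to 0.41), and Plat, the protease known for opening PDGF-C, 47.9 and 46.9 CPM (0.03, -0.13 to 0.19). Of the receptor partners, 4 of 6 were in use, with a median of -0.38. Nrp1, which encodes a coreceptor for several growth factors including PDGF, was 25.4 CPM in Lipo-Clo and 54.1 in Lipo-PBS (-1.09, -1.28 to -0.91), the furthest of the 48. Of the adaptors and kinases, 22 of 33 were in use, with a median of -0.14. Map2k2, which passes the signal on from Raf, was 125 and 99.3 CPM (0.34, 0.23 to 0.44), and Grb2, an adaptor that joins the receptors to Ras, 47.9 and 50.9 CPM (-0.09, -0.24 to 0.07).

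Of the brakes on the receptors, 10 of 14 were in use, with a median of -0.20. Spred2, an inhibitor of the Ras and Raf step, was 22.8 and 34.5 CPM (-0.60, -0.81 to -0.39). Its relative Spred1 was 55.1 and 76.4 CPM (-0.47, -0.61 to -0.34). Of the early response genes, which growth factors and tissue dissociation alike are known to induce, 5 of 10 were in use, with log2 ratios from -0.42 to -0.13, among them Fos at 1298 and 1672 CPM (-0.37, -0.39 to -0.34) and Egr1 at 764 and 835 CPM (-0.13, -0.17 to -0.09).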

How the data were processed

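Droplet single-cell RNA-seq was made from 1 Lipo-Clo and 1 Lipo-PBS library. The authors deposited raw UMI counts per gene and cell; the file headers name Cell Ranger 8.0.0, the submitters' processing notes Cell Ranger 3.1.0, Seurat 3.1.1 and GRCm39, and this difference is unresolved. Deposited matrices held 9362 and 9653 cells (31053404 and 30537834 UMIs).

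Cells under 200 genes or over 20% mitochondrial UMIs were dropped. Scrublet's own threshold marked 0 and 1 doublets, so it had not worked, and the 632 and 633 highest scores (7.11% and 7.12%) were removed. Both libraries were clustered together with scanpy 1.11.5 and leidenalg 0.10.2 (2000 variable genes without the members, 30 components, resolution 1), and the mesenchyme again at 0.6. CPM intervals are exact Poisson, shares exact Clopper-Pearson, and ratio intervals exact conditional on the summed UMIs (scipy 1.17.1). edgeR 4.0.16 served only for scaling factors in an alternative. Shares of cells with a UMI were compared after thinning each cell to 1000 UMIs, which left out 389 Lipo-Clo and 273 Lipo-PBS mesenchymal cells.

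Named were the members, pathway genes past 1.5-fold with an interval clear of 0 (up to 5 each way; relatives and well-known genes named beside them were chosen after their values were seen), the 3 genes most like each member among those with 200 UMIs, and 3 leading genes per subcluster. The members and lists were chosen with earlier results of these data known. The script for ratios and intervals was tested on simulated data. Values of some pathway genes are not reported here.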

Additional observations from a re-analysis of the deposited data

How the results depend on the processing

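No paired analysis was possible because there is only 1 library of either condition. In dental mesenchyme each log2 ratio was recomputed under 17 alternatives. Pdgfa, Pdgfb and Pdgfra kept their sign in all 17. Pdgfd turned from -0.14 to 0.026 with cells thinned to 1000 UMIs and to 0.22 as a mean over scaled cells, and Pdgfrb moved to 0.12 with thinned cells; the cause was not tested. With equal subcluster weights in both libraries, Pdgfc was -0.15 and Pdgfd -0.35; with the mixture at resolution 0.3, Pdgfc was -0.14, Pdgfd -0.38, Pdgfra -0.22 and Pdgfrb 0.020; at 1.2, Pdgfc was -0.22, Pdgfd -0.32 and Pdgfra -0.26. With the mixed-lineage cluster counted as mesenchyme, an alternative chosen after seeing the data, Pdgfra was -0.29. Leaving out dividing cells or the subcluster led by erythroid genes, also chosen after seeing the data, kept the mesenchymal ratios within the counting interval. Classes without subclusters led by another class, the last alternative chosen after seeing the data, stand in the text. In other classes 317 of 335 ratios stayed within it and 18 did not, none of which reversed a value whose interval was clear of 0. Scaling shifted the median gene by less than 0.1.

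The share of a gene's UMIs in dental mesenchyme (Lipo-Clo, then Lipo-PBS) with doublets kept was 58.8% and 43.5% for Pdgfa, 51.7% and 54.1% for Pdgfc, 75.7% and 68.6% for Pdgfd, 82.6% and 74.6% for Pdgfra, and 59.4% and 49.8% for Pdgfrb. With every deposited cell it was 59.9% for Pdgfa and 51.9% for Pdgfc in Lipo-Clo, 75.9% and 69.9% for Pdgfd, 83.0% and 74.9% for Pdgfra, and 61.1% and 52.0% for Pdgfrb. Under the stricter cell filter that of Pdgfra in Lipo-Clo was 87.5%. In the class that led in the text, CPM with doublets kept was 242 for Pdgfc and 631 for Pdgfrb in Lipo-Clo. Under the stricter filter it was 269 for Pdgfa in Lipo-Clo and 296 and 214 for Pdgfrb. With every deposited cell it was 265 for Pdgfa in Lipo-PBS, 114 and 58.2 for Pdgfb, 242 for Pdgfc in Lipo-Clo, 124 for Pdgfd in Lipo-PBS, and 624 and 426 for Pdgfrb. At Leiden resolution 2 Pdgfc was 306 and 348. At resolution 0.5 no class took the endothelial name, and with each library clustered alone no Lipo-Clo class took the endothelial or perivascular name, so another class led there for Pdgfb and Pdgfrb. Dental mesenchyme led for Pdgfd in both libraries at resolution 0.5, in Lipo-Clo clustered alone, and in Lipo-PBS with every deposited cell (126 CPM). Glia-like cells led for Pdgfa in Lipo-Clo when it was clustered alone and under the stricter filter (346 CPM).

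In the highest mesenchymal subcluster, resolution 1.2 gave 557 CPM for Pdgfd in Lipo-Clo, 475 and 680.1 for Pdgfra and 210.1 and 302 for Pdgfrb; resolution 0.3 gave 409.5 for Pdgfra and 199 for Pdgfrb in Lipo-PBS. Of mesenchymal cells with a Pdgfra UMI, 30.8% and 31.1% had a Pdgfrb UMI as sequenced and 19.6% and 22.4% when thinned to 2000 UMIs. At a fold limit below 1.5, 3 pathway genes were higher and 15 lower, beside 15.4% and 18.5% of all genes in use. At 2, 1 was lower, beside 0.969%. With all genes of at least 20 UMIs, 1 of 74 was higher and 9 lower, beside 5.5% and 9.94%. The Pdgfb values rest on the fewest UMIs of the members.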
